A study of Mus musculus with 25 samples.

Results

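Core H3K27me3 regions were the stretches of the mouse genome that lay in H3K27me3 peaks of 3 cell systems at once: fibroblast line A, fibroblast line B and neural progenitor cells (NPC). The 3 peak lists were intersected base by base on chromosomes 1 to 19, and intersected intervals of 3000 bp or longer were kept. This gave 3088 core regions that covered 18.7 Mb, out of 16457 intersected intervals of any length that covered 32.2 Mb. Core regions were 18.8% of the intersected intervals and 58.1% of their length. Positions are those of the build mm10.

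The study of 25 libraries profiled H3K27me3 in cells that lost and regained activity of Polycomb repressive complex 2 (PRC2). Wild-type NPC, derived from embryonic stem (ES) cells, were profiled by CUT&RUN, which uses an antibody-bound nuclease to cut out marked chromatin. Their libraries came from cells under UNC1999 at 2 uM plus A395 at 4 uM, compounds that inhibit PRC2, from cells after washout of these compounds, and from untreated cells, 2 libraries each. Lines A and B were mouse embryonic fibroblasts immortalized with c-myc and profiled by ChIP-seq, 2 libraries for each genotype. Line A was labelled Ezh2 -/-, Ezh2 -/- with retroviral pMSCV-Ezh2, and wild-type; line B was labelled Ezh2 -/- (reversible), Ezh2 endogenous rescue, and wild-type. A further 7 ChIP-seq and input libraries of line A, labelled Ezh2 -/-, were not analysed here. The peak lists belong to the series and not to single libraries. The names of the 2 fibroblast lists join the library names of wild-type and Ezh2 -/- cells of a line, C2 with C2plusT for line A and C26 with C26_Ezh2 for line B, and the NPC list names no treatment. How those libraries were used in calling the peaks (pooled, or one set against the other), and which NPC libraries entered, was not given in the sources used here. Loss of Ezh2, rescue, inhibition and washout were therefore not compared. The lists hold positions without heights, so the depth behind a peak is unknown, and every count below has no replicate check and no p-value. NPC differed from both fibroblast lines in cell type and in assay, and each fibroblast line is a single line.

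PRC2 places H3K27me3 through its catalytic subunit Ezh2, with Eed and Suz12 as partners, and the mark is bound by further Polycomb complexes that keep genes silent. It is best known over genes of embryonic patterning, such as homeobox factors and secreted signals, in cells that do not use them. In mammals these genes often have promoters rich in CG dinucleotides (CpG), where Polycomb complexes are recruited.

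The promoters below are examples of gene starts that lay inside long core regions. For each of 5 gene groups, the gene was taken whose whole promoter window (250 bases before to 50 after the start) lay in the longest core region. The groups were transporters and other channels and receptors (Slc22a3), homeobox factors (Dmbx1), other transcription factors (Prdm12), genes of tandem clusters (Olfr1410) and signals (Ihh). Their core regions had 44.7, 42.9, 40.5, 38.1 and 13.9 kb in the same order, so that of Ihh was much shorter than the others. Sequences are from RefSeq, build GRCm38.p6, the assembly of mm10, 5′ to 3′ on the strand of the gene, and capitals mark each CG.
Slc22a3: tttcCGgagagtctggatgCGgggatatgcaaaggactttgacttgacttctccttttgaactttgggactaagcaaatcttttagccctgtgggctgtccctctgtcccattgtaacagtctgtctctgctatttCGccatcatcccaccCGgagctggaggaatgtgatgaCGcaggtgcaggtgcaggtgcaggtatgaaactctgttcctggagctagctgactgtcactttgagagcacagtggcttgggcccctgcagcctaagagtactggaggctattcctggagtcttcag
Dmbx1: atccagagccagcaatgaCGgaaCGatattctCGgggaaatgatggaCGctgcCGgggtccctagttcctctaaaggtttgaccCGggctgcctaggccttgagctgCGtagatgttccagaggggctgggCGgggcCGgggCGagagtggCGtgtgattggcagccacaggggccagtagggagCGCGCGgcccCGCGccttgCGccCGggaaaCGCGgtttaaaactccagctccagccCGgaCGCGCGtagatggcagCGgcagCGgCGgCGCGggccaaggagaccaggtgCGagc
Prdm12: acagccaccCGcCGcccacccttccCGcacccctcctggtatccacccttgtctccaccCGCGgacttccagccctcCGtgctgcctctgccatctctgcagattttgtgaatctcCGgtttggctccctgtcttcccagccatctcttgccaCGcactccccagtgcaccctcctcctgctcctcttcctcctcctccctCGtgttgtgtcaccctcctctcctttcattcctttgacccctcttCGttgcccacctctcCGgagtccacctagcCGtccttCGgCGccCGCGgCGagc
Olfr1410: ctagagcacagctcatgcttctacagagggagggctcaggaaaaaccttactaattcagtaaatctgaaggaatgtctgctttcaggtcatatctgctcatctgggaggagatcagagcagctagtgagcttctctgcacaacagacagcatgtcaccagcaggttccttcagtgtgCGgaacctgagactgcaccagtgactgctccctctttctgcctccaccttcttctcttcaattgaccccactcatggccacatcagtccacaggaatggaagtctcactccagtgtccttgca
Ihh: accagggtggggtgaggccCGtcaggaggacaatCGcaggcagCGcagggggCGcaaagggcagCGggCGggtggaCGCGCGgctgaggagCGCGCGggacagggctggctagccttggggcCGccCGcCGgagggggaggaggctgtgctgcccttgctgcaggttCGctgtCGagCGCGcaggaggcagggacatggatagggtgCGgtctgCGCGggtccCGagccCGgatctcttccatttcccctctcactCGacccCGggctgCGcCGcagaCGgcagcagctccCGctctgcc

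Among these 5 windows, each 300 bases long, the number of CG dinucleotides ran from 1 to 30. Slc22a3 (chr17:12507655-12507954, minus strand) had 5 CG and Dmbx1 (chr4:115939877-115940176, minus strand) had 30. Prdm12 (chr2:31639787-31640086, plus strand) had 17. Olfr1410 (chr1:92607589-92607888, plus strand) had 1 CG, and Ihh (chr1:74951623-74951922, minus strand) had 30. These core regions thus lay over the CG-rich starts of a homeobox and a Hedgehog signal gene and over the CG-poor starts of a transporter and an olfactory receptor.

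Core regions also held 13 of 980 autosomal miRNA loci with a listed sequence (1.33%), in 10 core regions. They gave 23 listed mature miRNAs with 23 different seeds, so no seed was shared among those listed. Those printed here were chosen after the loci were seen because their tissues are well known. They are from the loci of miR-9 of the nervous system, miR-203 of skin epithelium, miR-375 of pancreatic islets and miR-1 of muscle. The tissue is that of the locus and is not tied to a printed sequence. For miR-375 and miR-1a-1 only the 5p sequence was among the 23, so their 3p sequences and seeds are not shown. Capitals mark the seed, bases 2 to 8, and the sequences are from RefSeq, build GRCm38.p6.
miR-9-5p: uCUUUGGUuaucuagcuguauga
miR-9-3p: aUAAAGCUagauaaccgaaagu
miR-203-3p: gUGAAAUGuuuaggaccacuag
miR-203-5p: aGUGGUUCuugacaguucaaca
miR-375-5p: gCGACGAGccccucgcacaaac
miR-1a-1-5p: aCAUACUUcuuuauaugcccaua

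The Mir9-1 locus lay in a core region of 8.31 kb at chr3:88210420-88218730, which held Mir3093 as well. Mir203 lay in a core region of 8.65 kb at chr12:112128935-112137582, the first of the regions clustered at Kif26a. Mir375 lay in 5.31 kb at chr1:74899089-74904399, and Mir1a-1 in 7.73 kb at chr2:180383828-180391556. The peaks carry no strand, so Mir9-1 and Mir203 cannot be told apart from the loci annotated on the strand opposite to each (miR-9b and miR-203b).

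Most core regions were short, and a few were very long. The median length was 4723 bp, with quartiles of 3676 and 6917 bp. There were 332 core regions of 10 kb or longer, 46 of 20 kb or longer, 14 of 30 kb or longer and 4 of 40 kb or longer, and the longest had 44731 bp. The 886 longest regions held 50% of the core length. The length minimum fell on a smooth slope of lengths, with 614 core regions under 3500 bp and 740 intersected intervals of at least 2500 and under 3000 bp. The regions just inside it had 3000 or 3001 bp and lay at D430019H16Rik, in Cux2, in Cacna1d, 237 kb from Pter and in Zbtb46. The intervals just outside it fell short by at most 5 bp and lay 9.29 kb from Enpp7, 17.1 kb from Crh, in Rnf43, in Rab3c and 96.3 kb from Trim29.

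**Figure D1:**
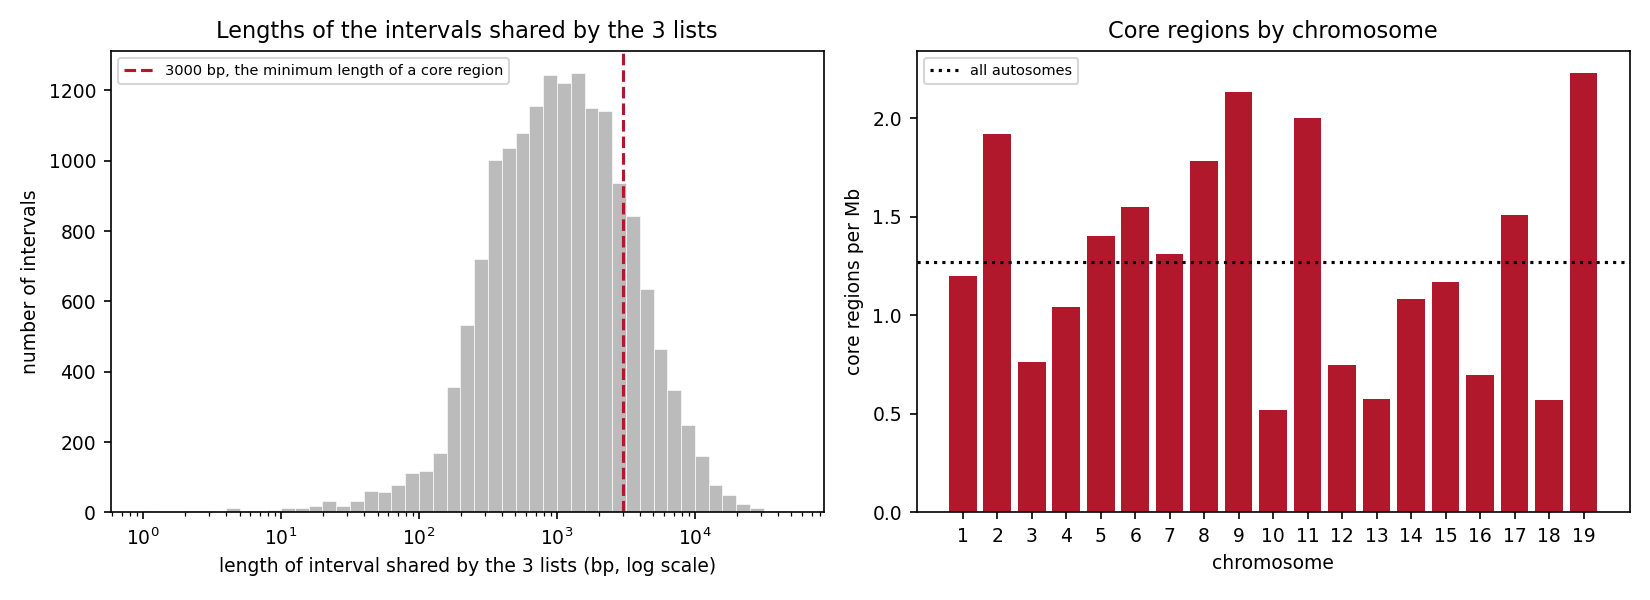
Left, number of intervals shared by the 3 lists against their length in bp on a log scale, with a dashed line at the minimum of 3000 bp. Right, core regions per Mb on each autosome, with a dotted line at 1.27 per Mb for all autosomes; chromosome 19 stood highest at 2.23 and chromosome 10 lowest at 0.518.

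Core regions covered 0.77% of the 2429 Mb of autosome between the first and last gene records, at 1.27 regions per Mb. Density was highest on chromosomes 19 (2.23 per Mb), 9 (2.13), 11 (2 per Mb) and 2 (1.92), and chromosome 2 held the most regions, 344. Chromosomes 10 (0.518 per Mb), 18 (0.572) and 13 (0.574) were lowest. Chromosome 11 had 13.2 genes per Mb and chromosome 10 had 7.86, against 8.51 over all autosomes, and gene density was not separated from core density by a test. Chromosome 7 stood apart in the lists, with 6012 peaks in NPC, 4920 in line A and 2535 in line B. Its 190 core regions took 4.74% of the NPC peak length there, 6.79% of that of line A and 19.9% of that of line B.

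The NPC list set the edges of core regions more often than the fibroblast lists did, and it was also the shortest. Its peaks added up to 136.9 Mb, against 276.2 Mb in line A and 235.7 Mb in line B. A shorter list limits an intersection more often, so the shares below were not read as a trait of NPC. Core length was 13.7% of the length of the NPC peaks, 6.77% of that of line A and 7.94% of that of line B. The NPC list alone set 51.4% of core edges, line A alone 24.7% and line B alone 23.9%. A core region was the same as a whole NPC peak in 1053 cases (34.1%), a whole line A peak in 319 and a whole line B peak in 347. The peak around a core region had a median of 7361 bp in NPC, 11545 bp in line A and 12849 bp in line B.

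The longest core regions lay over single developmental genes, a pair of Hox genes, a transporter and a group of olfactory receptors. The longest, 44.7 kb at chr17:12475333-12520063, covered an end of Slc22a3, a transporter of organic cations, inside a line A peak of 162.8 kb and a line B peak of 61 kb, and it was the whole of an NPC peak of 44.7 kb. The next, 43.0 kb at chr15:102894814-102937855, held Hoxc13 and reached into Hoxc12, posterior Hox genes, inside peaks of 43.0 kb in NPC, 119.3 kb in line A and 55.2 kb in line B. At both loci the core region was a whole NPC peak.

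Dmbx1, a homeobox factor of the developing brain, had a core region of 42.9 kb at chr4:115932442-115975306, inside peaks of 49.0 kb in NPC, 54.2 kb in line A and 51.5 kb in line B. Prdm12, a zinc finger protein needed for pain-sensing neurons, lay whole in a core region of 40.5 kb at chr2:31623481-31664012. Its peaks had 41.8 kb in NPC, 42.9 kb in line A and 40.9 kb in line B, so the 3 lists drew nearly the same block, with the neighbours Fubp3 and Exosc2 at 5.96 and 6.70 kb outside it. Olfr1412, Olfr1411 and Olfr1410, receptors for odorants, shared a core region of 38.1 kb at chr1:92574478-92612578, inside peaks of 57.7 kb in NPC, 44.2 kb in line A and 44.5 kb in line B. The list with the longest peak was not the same at each of these loci: line A drew it at Slc22a3, and NPC drew it at the olfactory receptors.

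The next core regions in length were at Lhx4, a LIM homeobox factor of pituitary and motor neurons (36.8 kb, chr1:155718393-155755195), and over the predicted gene Gm884 with Lyzl6, a lysozyme-like gene of sperm (36.6 kb, chr11:103607532-103644111). Tox2, an HMG-box factor, held 35.3 kb (chr2:163214032-163249320) and a further region of 29.7 kb. Cntn2, an adhesion molecule of axons, had 33.7 kb (chr1:132523923-132557639), and Cbfa2t3, a corepressor of transcription, had 31.5 kb (chr8:122666891-122698390). At Lhx4 the core region was the whole line A peak, at Tox2 the whole line B peak of 35.3 kb, and at Gm884 the whole NPC peak, so each list was the narrowest at some locus.

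**Figure D2:**
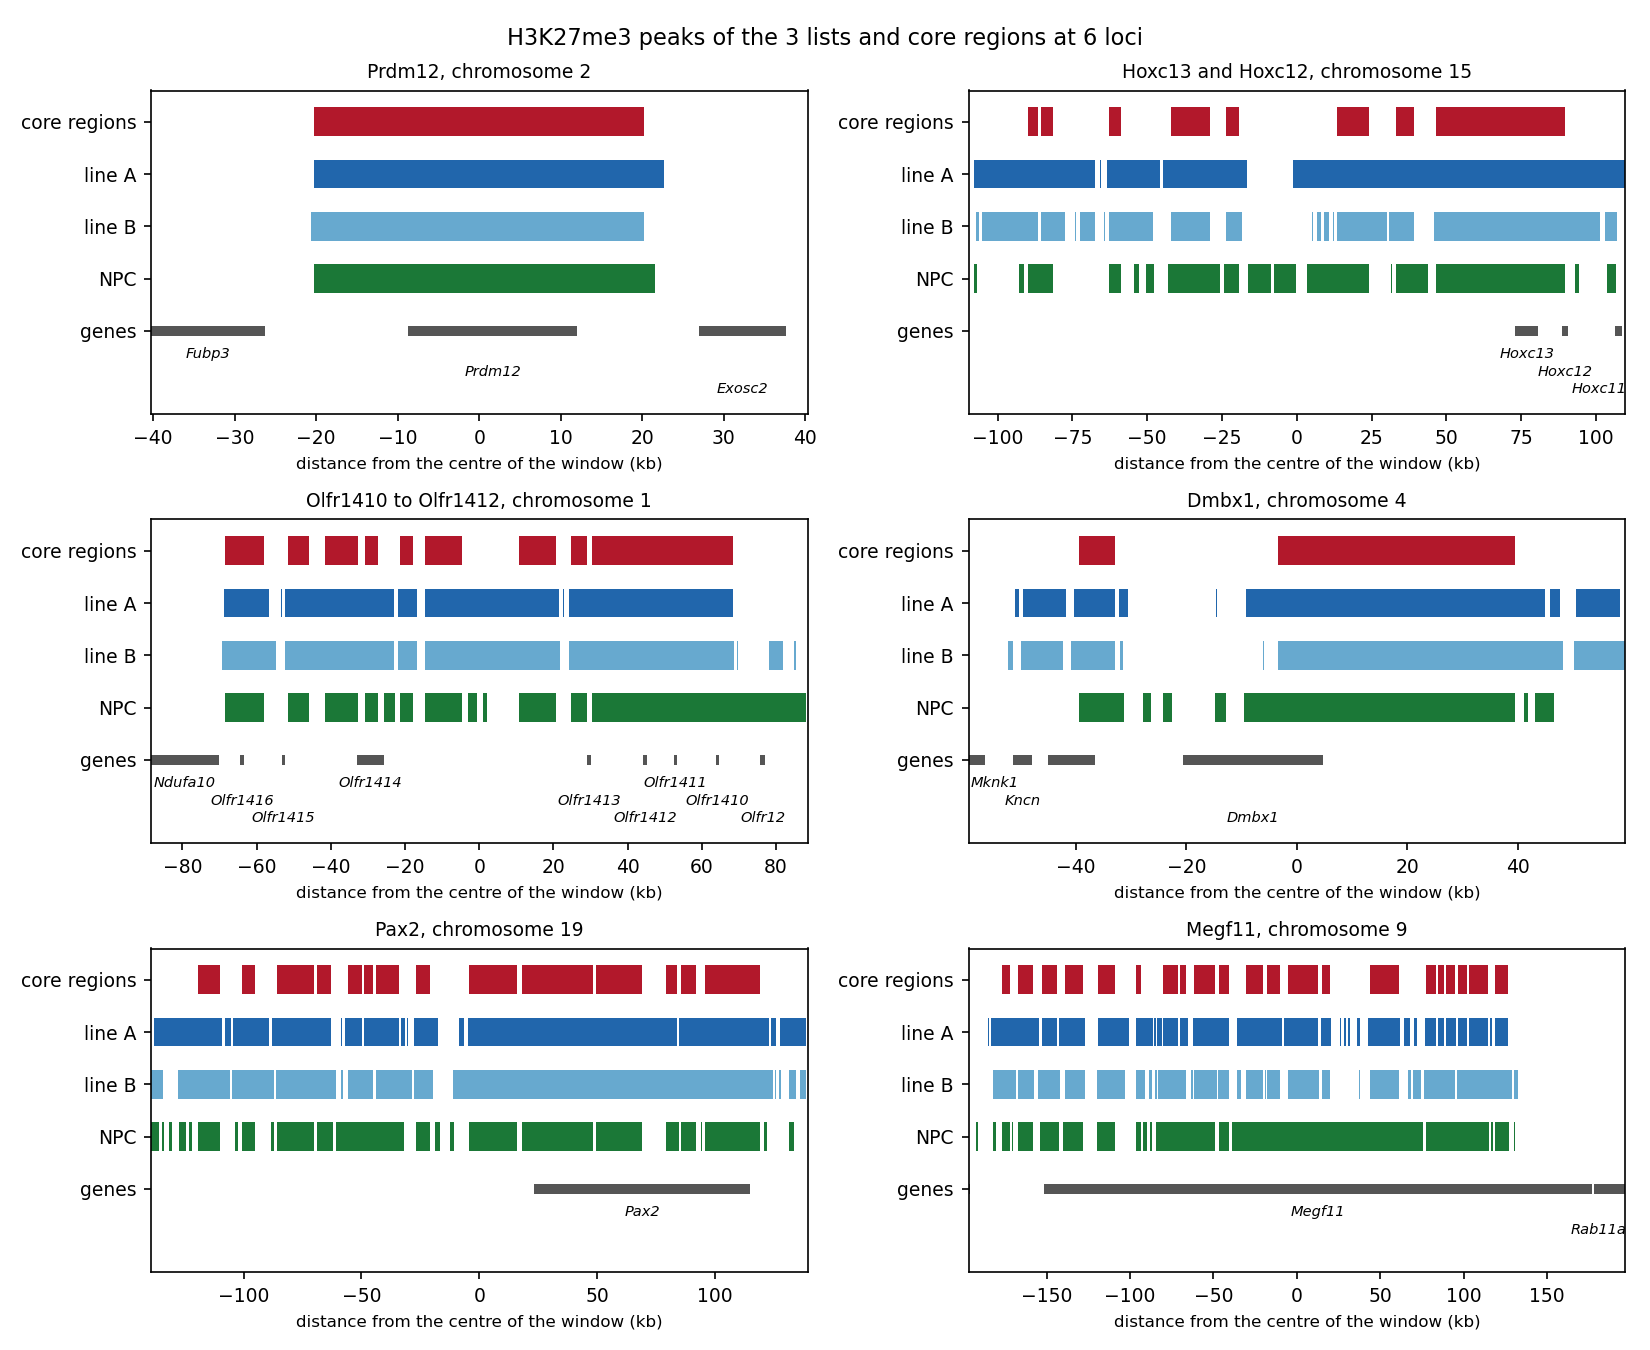
Core regions, the peaks of line A, line B and NPC, and protein-coding gene records at 6 loci, plotted as distance from the centre of each window in kb. At Prdm12 the 3 lists drew single peaks of 42.9, 40.9 and 41.8 kb around 1 core region of 40.5 kb, whereas at Megf11 and Pax2 the lists broke into many peaks that left 21 and 14 core regions.

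Core regions overlapped 997 of 20665 protein-coding gene records (4.82%), against 2665 (12.9%) for genes with a peak of every list. At least 50% of the record was covered in 225 genes (1.09%), and 76 genes lay whole in core regions. Among those 76 were Prdm12, Isl1, Otp, Hoxc13, Nkx2-5 and the keratin gene Krt76. A core region lay within 2 kb of 1160 genes (5.61%) and within 5 kb of 1392 (6.74%). Genes with a core region had a median record of 32269 bp, against 17015 bp for genes without one. The share of genes with a core region was 8.69% for records over 100 kb, 7.67% for 50 to 100 kb, 4.97% for 20 to 50 kb, 3.94% for 5 to 20 kb and 2.47% for records up to 5 kb. The part of record length in the family shares that follow was not tested.

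Genes were grouped into 44 families by symbol, and the families into 8 groups by role. Homeobox factors, with which the Pax family was counted, held the highest share, 42 of 171 (24.6%, 95% interval 18.3 to 31.7%), against 4.82% of all genes. Signals had 24 of 162 (14.8%, 9.73 to 21.2%) and channels and receptors 83 of 552 (15%, 12.2 to 18.3%). Other transcription factors (33 of 562, 5.87%) and adhesion and matrix genes (11 of 213, 5.16%) stood near the share of all genes. Of the 562, 360 were Zfp zinc finger genes, of which 3 had a core region (0.833%), so the 5.87% mixes unlike families. Genes of tandem clusters stood below the share of all genes (41 of 1708, 2.4%, 1.73 to 3.24%). No core region overlapped any of 196 ribosomal and proteasome genes (upper bound 1.86%) or of 30 Polycomb genes (upper bound 11.6%). The intervals are exact binomial and cover counting error only, and neighbouring members of a family can share a core region.

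**Figure D3:**
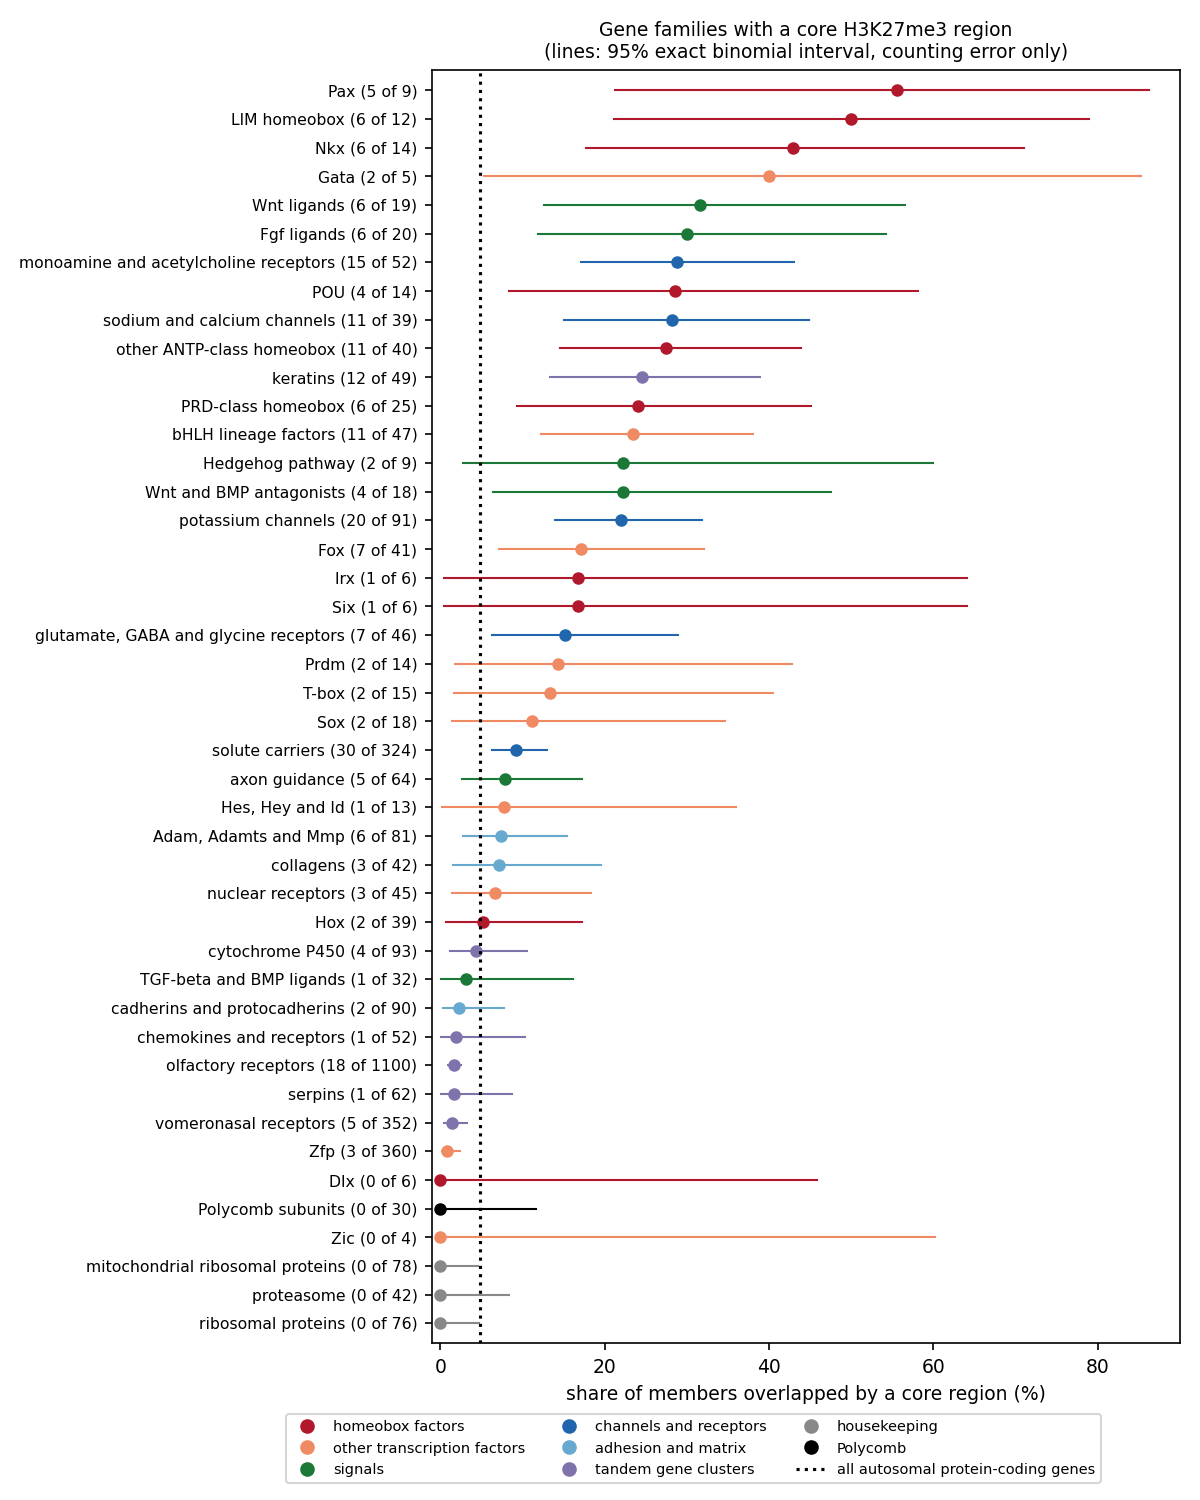
Share of the members of each gene family overlapped by a core region, in percent, with 95% exact binomial intervals as lines (counting error only), coloured by role; the dotted line is the 4.82% of all autosomal protein-coding genes. Pax, LIM homeobox and Nkx factors stood highest at 55.6, 50 and 42.9%, and ribosomal and proteasome genes were at 0.

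Homeobox families differed widely among themselves. Pax factors, which pattern kidney, eye, brain and blood lineages, had 5 of 9 members with a core region, LIM homeobox factors 6 of 12 and Nkx factors 6 of 14. POU factors had 4 of 14, PRD-class factors 6 of 25 and other ANTP-class factors 11 of 40. Hox genes had 2 of 39 (5.13%, 0.627 to 17.3%), close to the share of all genes, and these were Hoxc13 and Hoxc12. Line A peaks overlapped 20 Hox genes, line B peaks 19 and NPC peaks 5, against 28.4, 28.2 and 22.3% of all genes in the same order. A peak of every list lay over 4 of the 39 Hox genes, against 12.9% of all genes. Dlx genes, limb and forebrain factors, had none of 6 in a core region, although line A peaks overlapped 4, line B peaks 1 and NPC peaks 4.

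Isl1, a factor of motor neurons and heart progenitors, lay whole in a core region of 23.4 kb. Otp, a factor of the hypothalamus, did so in 24.9 kb. Nkx2-1, of lung, thyroid and forebrain, lay whole in 21.7 kb, and Nkx2-5, of the heart, in 17.1 kb. These 4 genes lay whole in peaks of each list, since a core region holds only bases found in every list.

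Pax2, Pax5, Lmx1a, Lhx4 and Pax3 have longer records and were covered in part, and the least covering list was not the same at each. Core regions covered 81.5% of Pax2, a factor of kidney and midbrain, where peaks covered 82.5% in NPC, 99.0% in line A and 100% in line B. Pax5, the B cell factor, had a core share of 10.6%, with 11.9% in NPC, 75.3% in line A and 89.0% in line B. Lmx1a, of dopamine neurons, had a core share of 27.2% in 7 regions, with 35.8% in NPC, 76.2% in line A and 85.4% in line B. At these 3 genes NPC coverage was the lowest of the lists. Lhx4 had a core share of 62.1%, with 77.0% in NPC, 63.1% in line A and 77.5% in line B, so line A was lowest there. Pax3, a factor of neural crest and muscle, was chosen after its values were seen and had a core share of 0.461%, with 82.3% in NPC, 93.5% in line A and 6.62% in line B. Line B was lowest at Pax3 by a wide margin.

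Among other transcription factors, the bHLH lineage factors had 11 of 47 members with a core region (23.4%, 12.3 to 38%), Fox factors 7 of 41 (17.1%) and Gata factors 2 of 5. The Zfp genes, a large set of zinc finger genes that made up 360 of the 562, had 3 members with a core region (0.833%, 0.172 to 2.42%), below the share of all genes. Neurod2 and Neurog2, which drive neuron formation, lay whole in core regions of 24.8 and 21.5 kb. Foxb1 and Sox14, factors of the embryonic brain, lay whole in 29.0 and 21.1 kb. Gata6, a factor of endoderm and heart on chromosome 18, was touched over 1.08% of its record only.

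Of secreted signals, Wnt ligands had 6 of 19 members with a core region (31.6%, 12.6 to 56.6%), Fgf ligands 6 of 20 (30%, 11.9 to 54.3%), antagonists of Wnt and BMP 4 of 18, and the Hedgehog pathway 2 of 9. TGF-beta and BMP ligands had 1 of 32, Gdf6, and axon guidance genes 5 of 64 (7.81%). At least 50% of the record was covered in 5 Fgf ligands, whose median record had 9286 bp, and in 2 Wnt ligands, whose median record had 22906 bp. Wnt3a was covered over 77.1% by 3 core regions, with 82.8% covered in NPC, 96.2% in line A and 100% in line B. Wnt10a was covered over 94.9% by 1 core region of 15.9 kb, with 100% in NPC and line B and 94.9% in line A. Fgf3 lay whole in a core region of 8.60 kb, and Fgf8 was covered over 64.4%. Shh and Ihh, both Hedgehog ligands, were covered over 84.7 and 59.1%. Shh had 100% in NPC and line B and 91.6% in line A, and Ihh had 59.1% in NPC and 100% in both fibroblast lines. Slit1, a repellent of axons, held 12 core regions over 64.8% of its record.

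Channels and receptors, many of them genes of neuronal excitability, had about the same share as signals. Receptors for monoamines and acetylcholine had 15 of 52 members with a core region (28.8%, 17.1 to 43.1%), sodium and calcium channels 11 of 39 (28.2%, 15 to 44.9%), potassium channels 20 of 91 (22%, 14 to 31.9%), receptors for glutamate, GABA and glycine 7 of 46 (15.2%) and solute carriers 30 of 324 (9.26%, 6.33 to 13%). The median record had 110474 bp for sodium and calcium channels and 160403 bp for the glutamate, GABA and glycine receptors, so these families hold long genes. Coverage of such records was mostly partial: at least 50% was covered in 1 of the sodium and calcium channels and 2 of the potassium channels, against 6 of the monoamine and acetylcholine receptors, whose median record had 17099 bp. Grin1, an NMDA receptor subunit, was covered over 64.7% by 4 core regions, with 78.8% in NPC, 77.5% in line A and 96.9% in line B. Drd2, a dopamine receptor, was covered over 28.8% by 4 core regions, with 59.7% in NPC, 61.4% in line A and 88.3% in line B. Line B peaks covered the most of both receptor genes. Kcnn3, a calcium-activated potassium channel, held 7 core regions over 34.4%, with 77.2% in NPC, 89.6% in line A and 57.5% in line B.

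Tandem gene clusters split by family. Keratins, the filament proteins of epithelia and hair, had 12 of 49 members with a core region (24.5%, 13.3 to 38.9%). A peak of every list lay over 27 of the 49, against 12.9% of all genes. Krt76 lay whole in a core region of 14.2 kb, Krt28 was covered over 91.5% and Krt75 over 89.7%. Olfactory receptors had 18 of 1100 (1.64%, 0.973 to 2.57%) and vomeronasal receptors 5 of 352 (1.42%, 0.463 to 3.28%), both below the share of all genes. Their records are short, with medians of 950 and 960 bp, and 15 of the 18 olfactory receptors were covered over at least 50%. One of the 10 longest core regions, that of 38.1 kb on chromosome 1, nevertheless lay over olfactory receptors.

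Marker lists of the cells were too short for their core counts to be told from the 4.82% of all genes. Of 12 markers of neural progenitors, 1 had a core region, and none of 14 fibroblast markers had one. NPC peaks overlapped 2 of the 12 progenitor markers and 4 of the 14 fibroblast markers, against 22.3% of all genes. Line A peaks overlapped 6 and 1 of them, against 28.4% of all genes, and line B peaks 8 and 0, against 28.2%. None of 8 housekeeping genes, nor Ezh2, Eed or Suz12, was overlapped by a peak of any list.

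About as many core regions lay outside protein-coding genes as in them. Of 3088, 587 overlapped an end of a gene record (19%, 17.6 to 20.4%), 912 lay inside a record (29.5%, 27.9 to 31.2%) and 1589 lay outside (51.5%, 49.7 to 53.2%). Those outside were a median of 19.2 kb from the nearest gene, with quartiles of 6.3 and 53.6 kb, and those inside were a median of 12.9 kb from the nearest gene end. Marked sequence away from protein-coding genes was therefore not rare among core regions. Of the 1589, 312 overlapped a lncRNA record and 1221 no record of any type. Where starts are listed, 389 of 3038 core regions held a start (12.8%), 180 a 3' end (5.92%) and 79 both, so starts were met more often than 3' ends. Counted by gene, a start lay in a core region in 398 of 16457 genes with a listed start (2.42%), a 3' end in 193 (1.17%) and both in 109 (0.662%). Every listed start of a gene was counted, 20085 over the 16457 genes, but only a single 3' end. Starts thus had more chances to be met, and the part of this in the difference was not tested.

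Core regions reached gene ends more often than other marked stretches did. A gene end was overlapped by 19% of core regions, against 4.27% of the 5476 intersected intervals of at least 1000 and under 3000 bp. It was overlapped by 9.73% of line A peaks of 3000 bp or longer that held no core region, 12.8% of such line B peaks and 11.8% of such NPC peaks. Core regions had a median of 4723 bp, but the peaks around them had 7361 bp in NPC, 11545 bp in line A and 12849 bp in line B, longer than the 5042, 5475 and 5377 bp of the peaks without a core region in the same order. The part of peak length in the difference was not tested. Core regions outside genes were also nearer to a gene, with a median of 19.2 kb, against 69.5 kb in NPC, 40.8 kb in line A and 34.2 kb in line B, while the shorter intersected intervals had 20.7 kb. The 95% interval of the gene end share was 17.6 to 20.4% in core regions, and the intervals of the other sets reached at most 13.3%. These intervals cover counting error only and take regions as independent. Up to 9 core regions lay in a single line B or NPC peak, so the intervals are no test of the difference.

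**Figure D4:**
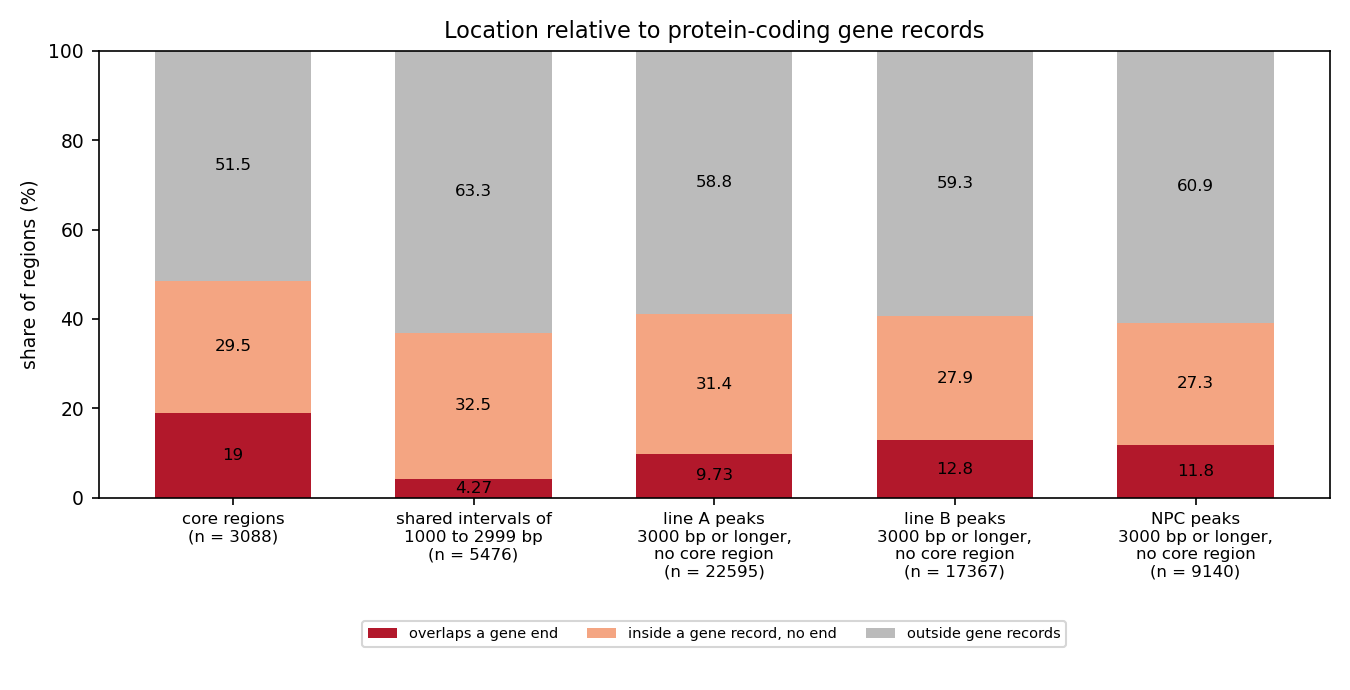
Share of regions, in percent, that overlap an end of a protein-coding gene record, lie inside a record or lie outside, for core regions and for 4 other sets named with their n under the axis. Core regions overlapped a gene end in 19%, against 4.27 to 12.8% in the other sets.

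The longer a core region, the more often it overlapped a gene end. The share was 9.94% under 4000 bp, 15.1% at 4000 bp or longer and under 6000 bp, 25.4% at 6000 bp or longer and under 10000 bp, and 46.7% at 10000 bp or longer, and the share outside genes was 58.3, 54.1, 47.5 and 29.8% in the same order. A longer interval also has more room to meet a gene end, and this was not tested. The longest core regions outside genes were 24.9 kb at 23.7 kb from Tle4 (chr19:14399452-14424365), a Groucho-type corepressor, and 23.5 kb at 19.1 kb from Scrt2 (chr2:152038976-152062461), a zinc finger repressor of neurons. Next came 20.5 kb at 7.28 kb from Pax2 (chr19:44718816-44739318), 19.9 kb at 63.0 kb from Ppp4r2 (chr6:100932952-100952845) and 19.8 kb at 8.52 kb from Epop (chr11:97599037-97618871), a gene whose protein binds PRC2. The others of the 10 longest lay by Topaz1, Sema6b, H2-M10.6, AF366264 and Gpc5, from 0.277 kb (Sema6b) to 165 kb (Topaz1) away. The core region farthest from a gene lay 414 kb from Plcl1 (chr1:56168652-56174897), inside peaks of 6.25 kb in NPC, 21.1 kb in line A and 21.5 kb in line B.

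Most core regions outside genes had a nearest gene that belonged to none of the 8 groups. Most protein-coding genes of the autosomes also belonged to none (17071 of 20665). Homeobox factors were nearest to 85 of the 1589 regions (5.35%), although they are 0.827% of all genes, and other transcription factors to 97 (6.1%), against 2.72% of all genes. Of these transcription factors, Zfp genes were nearest to 29 regions (1.83%), against 1.74% of all genes, and Fox genes to 26 (1.64%), against 0.198%. LIM homeobox genes were nearest to 18 (1.13%), against 0.0581% of all genes, and Pax genes to 12 (0.755%), against 0.0436%. Signals were nearest to 33 (2.08%), against 0.784% of all genes, and channels and receptors to 66 (4.15%), against 2.67%. Ribosomal and proteasome genes were nearest to 13 (0.818%), against 0.948%. Olfactory receptors were nearest to 31 (1.95%), against 5.32% of all genes. A core region outside a gene can be a part of the same block as one inside it, as at Pax2. Several regions there had Pax2 as the nearest gene, so these counts are of regions and not of separate loci.

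Core regions came in runs. With a gap of up to 50 kb, 2216 regions (71.8%) with 74.9% of the core length fell into 604 clusters of 2 or more, and 872 stood alone. There were 126 clusters of 5 or more regions and 26 of 10 or more, with at most 21. The median gap between neighbours was 40.6 kb, and 615 of 3069 gaps (20%) were under 5 kb. Gaps inside clusters added up to 20.2 Mb, of which NPC peaks covered 33%, line A peaks 59.1% and line B peaks 60.5%, against 5.64, 11.4 and 9.7% of the autosomes in the same order. Each list covered a larger share of the gaps than of the autosomes, and the NPC share of the gaps was the lowest. Where a single list sets an edge of a core region, the peaks of the other lists run on into the gap. An excess over the autosomes is thus built into the intersection, and it was not read as a trait of the clusters. The NPC list was also the shortest and alone set 51.4% of core edges, so gaps often begin where an NPC peak ends. The lower NPC share can therefore come from the intersection itself. This was not tested, and the share was not read as a trait of NPC. Of the gaps under 5 kb, a single NPC peak bridged 41.8%, a single line A peak 48.6% and a single line B peak 56.9%.

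The cluster with the most core length spanned 304 kb at Megf11, an EGF-repeat membrane protein of the retina, with 21 core regions that added up to 175.9 kb (chr9:64360644-64664145). The Pax2 cluster had 14 regions and 167.1 kb over 239 kb (chr19:44603860-44842535). The next held 19 regions and 144.0 kb at Adra2c, Hmx1 and Cpz (chr5:35246527-35547988), which encode an adrenergic receptor, a homeobox factor and a carboxypeptidase. These 3 clusters thus include a membrane protein gene alone in its span, a paired-domain factor with its flank, and unlike genes side by side.

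Lrrc37a, Gm884, Lyzl6, Rprml and Wnt9b shared 16 regions and 137.7 kb (chr11:103425675-103754504), and Gosr2, a gene of vesicle transport within the same span, had no core region. The cluster with Plg, the plasminogen gene, and the cation transporters Slc22a3 and Slc22a2 had 16 regions and 131.6 kb. Kcnc4, Slc6a17 and Ubl4b shared 14 regions and 121.2 kb, Lingo1 had 14 regions and 119.2 kb, Kif26a 16 and 107.9 kb, and Cbfa2t3 9 and 101.3 kb. A further cluster of 16 regions and 117.5 kb (chr6:100877482-101115857) held no protein-coding gene at all. Several genes thus shared a run of core regions in 4 of the 10 clusters with the most core length, and 5 held core regions over a single gene.

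Counted by gene, 269 of the 997 genes had 2 or more core regions and 39 had 5 or more. Megf11 held 19 over its record (161.6 kb, 49.2% of 329 kb), where peaks covered 73.8% in NPC, 66.3% in line A and 62.9% in line B. Slit1 and Lingo1, a receptor subunit that limits axon growth, held 12 each, over 96.9 and 96.0 kb. Both were covered most in NPC, Slit1 over 95% and Lingo1 over 90.2%, whereas line A covered 80.5 and 69.3% and line B 77.3 and 87.4% of the same genes. Tox2 held 90.2 kb in 6 regions, with 94.1% of its record covered in NPC, 95.5% in line A and 90.6% in line B, so here the lists were close to each other.

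Hpse2, Zdbf2 and Tll2 entered through a ranking by core length that was added after the values were seen. Hpse2, a relative of heparanase, held 63.1 kb in 9 regions, 10.5% of a record of 602 kb, with 29.7% covered in NPC, 76.8% in line A and 35.4% in line B. Zdbf2, an imprinted gene, held 57.3 kb, 50.2% of its record, with 54.2% in NPC, 92.3% in line A and 97.8% in line B. Tll2, a metalloprotease, held 51.7 kb, with 47.3% in NPC, 83.3% in line A and 91.0% in line B. The list with the least coverage thus differed by gene: it was NPC at Hpse2, Zdbf2 and Tll2, line B at Kcnn3 and Megf11, and line A at Lingo1.

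**Figure D5:**
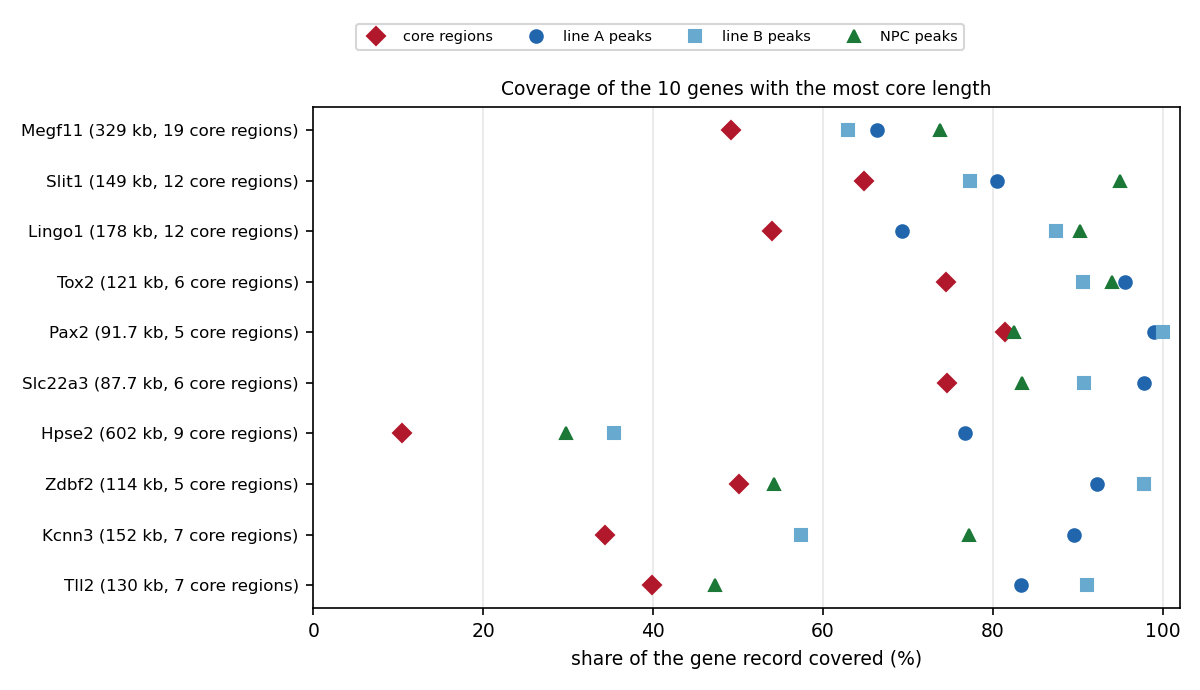
Share of the gene record, in percent, covered by core regions (diamonds) and by peaks of line A (circles), line B (squares) and NPC (triangles) for the 10 genes with the most core length, with record length and number of core regions beside each name. Core regions covered from 10.5% of Hpse2 to 81.5% of Pax2.

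Promoter windows are listed for 766 of the 997 genes with a core region, which is under 80%, so a comparison of base composition over that set is void and none is made. In the 369 of 16457 windows that lay whole in a core region (2.24%), the median was 17 CG and 60.7% G or C. Over all 16457 windows the median was 14 CG and 56.7% G or C. The 13073 windows that lay whole in no peak of any list had medians of 15 CG and 57%. The number of CG was also divided by the number expected from the C and G bases of the window. This ratio had a median of 0.619 in core regions, 0.644 in the windows in no peak and 0.597 over all windows. By this measure core windows did not stand above windows in no peak. The 11 signal genes in core regions had a median of 30 CG, the 20 homeobox genes 19.5, and the 21 genes of tandem clusters 3. Windows of these groups not in a core region had medians of 20.5, 17 and 1 CG. The order of the groups was thus not particular to core regions. Windows with 5 or fewer CG were 24.4% of the 369, against 31.5% of all windows and 29.5% of those in no peak.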

How the data were processed

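Per the labels, H3K27me3 came from 12 ChIP-seq libraries of fibroblasts and 6 CUT&RUN libraries of NPC. The deposited files used here are 3 peak lists, each with the chromosome, start and end of every peak as positions, with no header, score or height. MACS2 2.1.1.20160309, Bowtie2 2.2.9, deepTools, Picard and DESeq2 are named in the submitters' processing notes, without their roles, as are builds mm10 and dm6. How peaks were called, with which threshold and control, was not given in the sources used here. Deeper libraries can give wider peaks, and their depth is not known.

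Positions are printed 1-based, from 0-based starts. The lists were intersected with Python 3.11.15, numpy 2.4.6 and pandas 2.3.3, and the steps were tested on simulated data. Genes were the 20665 protein-coding records on autosomes in RefSeq (GRCm38.p6), whose table gives no strand; starts and strand came from the RefSeq promoter table, which lists 16457 of these genes and none on chromosome 18. Overlap was 1 bp or more. A gene end is either end of a record. Exact binomial (Clopper-Pearson) 95% intervals are from scipy 1.17.1. No test was made. Samples were grouped by the labels, and no list was assigned to a treatment.

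The members, families and comparisons were chosen with earlier results of these data known. Named were the 10 longest core regions, the 10 longest outside genes and the 10 clusters with the most core length, each with its genes, up to 4 genes per family with the most core length, the 5 intervals on either side of the length minimum, Ezh2, Eed and Suz12. Some members that this rule takes are not reported here by name. Predicted genes were counted and named only where no other gene was there or beside one. The alternatives were other length minima, joined peaks, an equal number of peaks per list, each list or chromosome 7 left out, other gene overlaps and other cluster gaps.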

Additional observations from a re-analysis of the deposited data

How the results depend on the processing

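No paired analysis was possible because the lists belong to the series and carry no replicate. With a minimum of 2000 bp there were 4926 regions, 930 clusters and 2710 regions outside genes. With 5000 bp there were 1396 regions, 12.2 Mb, 596 genes, 623 regions outside genes and 248 clusters. With 10000 bp there were 332 regions, 4.98 Mb, 226 genes, 155 regions at gene ends, 99 outside genes and 44 clusters. With peaks less than 3000 bp apart joined first, the length was 36.2 Mb and 911 regions overlapped a gene end. Without the line B list there were 5368 regions, 34.6 Mb, 2943 outside genes and 988 clusters. Without the NPC list there were 12051 regions, 87.7 Mb, 2567 genes, 1749 at gene ends, 6709 outside genes and 1971 clusters. With at least 50% of the record covered there were 225 genes. The share of regions at a gene end ran from 14.2% (2000 bp) to 46.7% (10000 bp). Each other value of these counts stayed within 1.5 times the reported one, and an equal number of peaks per list changed none, since every peak of 3000 bp or longer was kept. Of 528 family shares under 12 settings, 449 stayed within the interval of the reported share and 79 did not, 22 each without the NPC list, with 50% covered and at 10000 bp. The number of regions follows from the length minimum and from the shortest list, and peak heights and depth could not be weighed.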
